A study of Homo sapiens with 40 samples.

Results

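BT474R cells held in starvation medium with vehicle for 24 h were compared with BT474R cells collected at 0 h, after the initial starvation and before vehicle was added. Accessible chromatin was mapped by ATAC-seq, in which a transposase tags the DNA that it can reach, and each library gave 1 list of peaks, and 4 of the 40 lists of the series entered the comparison: 2 labelled control at 24 h and 2 labelled baseline at 0 h. Peaks of these 4 lists that overlapped by at least 1 bp on chromosomes 1 to 22 and X were merged into 54108 regions. A region with a peak in 2 of 2 control lists and 0 of 2 baseline lists was called opened, and a region with the reverse pattern was called closed. There were 147 opened and 2574 closed regions in the lists as deposited. The same rule was then applied to an equal number of top peaks per list, because the lists differed in length.

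BT474 is a breast ductal carcinoma cell line with amplified HER2, and BT474R is a single clone grown out of it under the anti-HER2 antibody trastuzumab, so that every value here describes 1 clone. All cells were starved overnight in low-serum medium. Baseline cells were then collected, whereas control cells received water as vehicle in freshly made starvation medium and were collected 24 h later. Elapsed time, the change of medium and the vehicle therefore cannot be told apart in this comparison. The wider series added epidermal growth factor (EGF), heregulin (HRG) or vehicle for 1, 12 or 24 h to BT474R and to its trastuzumab-sensitive parent BT474, with 2 libraries per group.

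A peak marks a stretch of DNA where nucleosomes are displaced, as they are at active promoters and enhancers. In luminal breast cells many enhancers are held open by GATA3 and by the forkhead protein FOXA1, factors that bind their sites in closed chromatin and keep them accessible to steroid receptors. AP-1, a dimer of FOS and JUN proteins, is induced by growth factor and stress signalling and opens a different set of enhancers. Prolonged loss of serum lowers growth factor signalling and slows the cell cycle. In such bulk samples, a change in the share of cells that use a region and a change in its accessibility per cell cannot be told apart.

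The regions that best carry the results are shown from 100 bases before to 100 after the summit, on the plus strand of GRCh38. The first 2 were among the 4 highest-ranked opened regions and the next 2 among the 4 highest-ranked closed regions. Capitals mark the motif letters searched for on either strand, which were TGANTCA for AP-1, then AGATAA for the GATA family, and lastly TGTTTAC for the forkhead proteins. A match is a description of the letters, not evidence of binding.
SCIRT intron, opened, chr6:44008319-44008519: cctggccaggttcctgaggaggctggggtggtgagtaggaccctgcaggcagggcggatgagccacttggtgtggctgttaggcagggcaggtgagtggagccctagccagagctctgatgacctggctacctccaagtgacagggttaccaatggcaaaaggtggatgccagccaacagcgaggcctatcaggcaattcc
Intergenic region with AP-1 matches, opened, chr7:159317395-159317595: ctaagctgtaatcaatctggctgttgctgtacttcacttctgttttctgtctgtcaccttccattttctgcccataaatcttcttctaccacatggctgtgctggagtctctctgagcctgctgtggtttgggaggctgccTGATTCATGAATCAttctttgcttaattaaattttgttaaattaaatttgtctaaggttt
IL9 neighbour, closed, chr5:135890388-135890588: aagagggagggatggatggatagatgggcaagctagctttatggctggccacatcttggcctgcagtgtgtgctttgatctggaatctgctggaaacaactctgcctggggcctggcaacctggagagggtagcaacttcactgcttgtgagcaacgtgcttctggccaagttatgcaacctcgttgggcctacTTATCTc
EGLN3 intron, closed, chr14:34113275-34113475: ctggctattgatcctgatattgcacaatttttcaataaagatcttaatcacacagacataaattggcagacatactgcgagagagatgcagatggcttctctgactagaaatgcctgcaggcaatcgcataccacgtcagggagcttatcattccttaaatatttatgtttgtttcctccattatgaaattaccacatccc
The chromosome 7 region holds 2 adjoining AP-1 matches and the IL9 region 1 GATA match. The SCIRT and EGLN3 regions hold none of these 3 motifs.

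The size of the lists was examined first. The control 24 h lists held 41833 and 45799 peaks, and the baseline lists held 53007 and 44546. The groups overlapped, with means of 43816 ± 2804 (SD, n = 2) and 48776 ± 5983 (SD, n = 2), a difference of -4960 peaks (exact permutation test, two-sided, p = 0.667). With 2 libraries against 2 this test cannot give a p below 0.333, and although treatments were done in duplicate, whether the duplicates came from separate days or passages is not stated, so the p measures only the spread between these samples. Peaks within 1 kb of an annotated start site (promoter peaks) numbered 16683 and 17384 in the control lists and 18303 and 16073 in the baseline lists, which also overlapped. Peaks elsewhere numbered 25150 and 28415 against 34704 and 28473, so that both control lists held fewer distal peaks than either baseline list (difference of the means -4806, p = 0.333 by the same exact test), although control replicate 2 and baseline replicate 2 were almost equal. Promoters accordingly took a larger share of the control peaks, at 39.9% and 38.0% against 34.5% and 36.1% (38.9 ± 1.36 against 35.3 ± 1.10, SD, n = 2 each, difference 3.61 points, exact permutation p = 0.333). With equal numbers of top peaks per list the difference was smaller, at 1.85 points (exact permutation p = 0.333). The covered length, 27.1 and 29.2 Mb against 35.2 and 26.1 Mb, overlapped between the groups and did not strictly follow the number of peaks. Baseline replicate 2 covered the least, although its list was longer than that of control replicate 1.

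**Figure D1:**
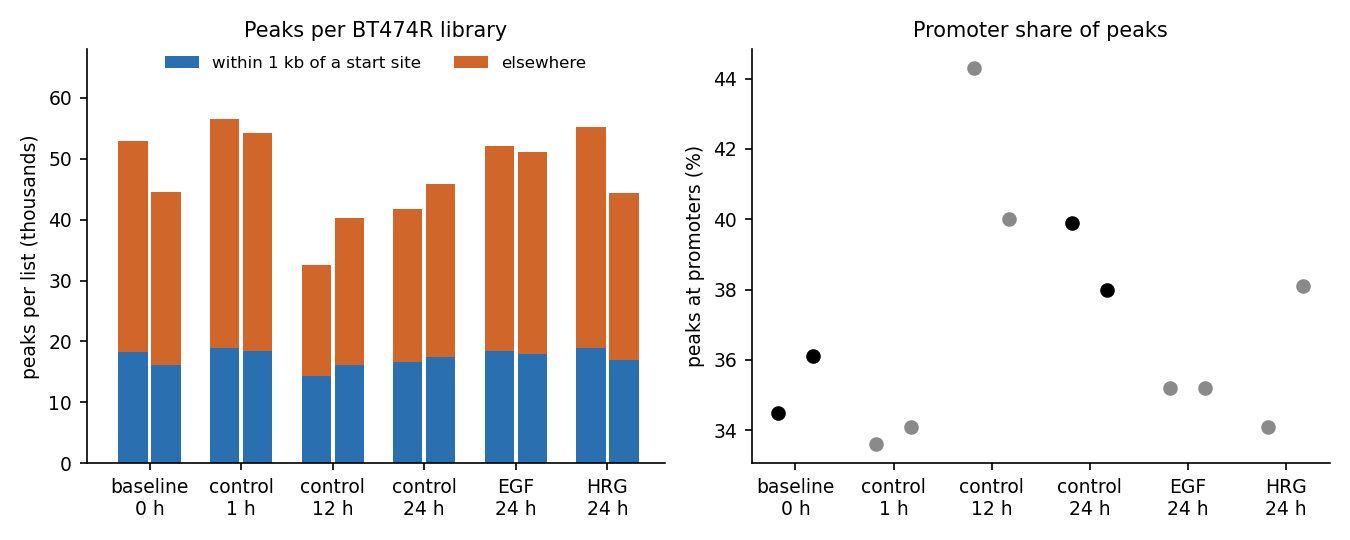
Left, peaks per list (axis in units of 1000 peaks) for the 2 libraries of each of 6 BT474R groups, split into peaks within 1 kb of a start site and peaks elsewhere; right, the promoter share in percent, with the 4 libraries compared here in black and an axis that does not start at 0. Both control 24 h libraries have a higher promoter share (39.9% and 38.0%) than both baseline libraries (34.5% and 36.1%), and the control 12 h lists, at 32479 and 40331 peaks, are the shortest of those plotted.

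The 2 baseline libraries stood apart from each other in a way that touches every count below. Baseline replicate 1 had the longest of the 4 lists, and 5596 regions had a peak in that library alone, against 160, 635 and 354 in control replicate 1, control replicate 2 and baseline replicate 2. The baseline replicates shared 71.7% of the bases they covered together (Jaccard index), less than any of the 4 pairs of a control with a baseline library, at 74.0% to 78.1%, whereas the control replicates shared 83.5%. With equal numbers of peaks the baseline pair still shared the least, 73.7% against 76.6% to 80.2% between the groups. Baseline replicate 2 then differed most: 1435 regions had a peak in it alone and 2143 lacked one in it alone. These counts were 1070 and 614 for baseline replicate 1, 915 and 928 for control replicate 1, and 844 and 672 for control replicate 2. Sequencing depth was unknown, since peak lists carry no read totals, and a region without a peak is one where none was called. Among 12 luminal markers 11 had a promoter peak in all 4 lists, including GATA3, FOXA1, ESR1 and ERBB2, and TFAP2B had none. The promoters of PTPRC, CD3E, COL1A2, PDGFRB, DCN and PECAM1, which mark immune, stromal and endothelial cells, had a peak in 0 of 4 lists, while those of CD68, COL1A1, CDH5 and VWF had one in all 4, so that 4 of these markers of other cell types were listed throughout, equally in both groups.

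In the lists as deposited the opened regions were 0.272% of the merged regions and the closed regions 4.76%, so that 5.40% of the regions called were opened. A further 36740 regions (67.9%) had a peak in all 4 lists. Regions on which the 2 replicates of a group disagreed were more frequent than regions called, at 6111 (11.3%) for the control lists and 10869 (20.1%) for the baseline lists. With the top 41833 peaks of each list, the length of the shortest, 46836 regions remained, of which 760 (1.62%) were opened and 1276 (2.72%) closed, and the opened share rose to 37.3%. Of these, 90 opened regions were called under both settings (61.2% of the 147 and 11.8% of the 760), as were 819 closed regions (31.8% of the 2574 and 64.2% of the 1276). The opened regions that equal numbers add were not places without a baseline peak. Apart from the 90, all of the 760 lay in merged regions that held a baseline peak in the lists as deposited. For 19.3% of the 760, that merged region had a peak in all 4 lists. Likewise, apart from the 819, the closed regions with equal numbers lay in merged regions that held a control peak as deposited. The excess of closed over opened regions depended on which baseline library was kept. Without baseline replicate 1, 2818 opened and 2964 closed regions were counted in the lists as deposited, and 3032 opened and 2740 closed with equal numbers. Without baseline replicate 2 the counts were 184 and 8181, and 1379 and 2348 with equal numbers. Leaving out a library loosens the rule, so that more regions are called. As deposited, 2550 regions lacked a peak in baseline replicate 2 alone, and 5596 had one in baseline replicate 1 alone. The counts therefore do not assign the excess to 1 library.

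**Figure D2:**
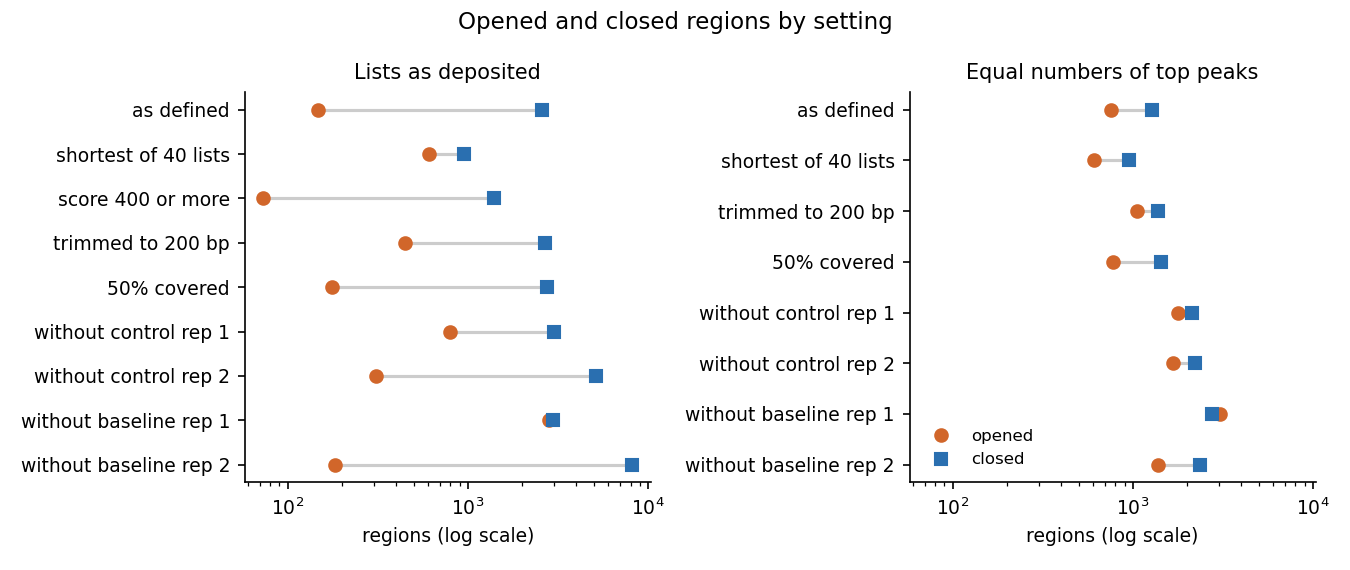
Number of opened (circles) and closed (squares) regions on a log axis, for the lists as deposited (left) and with equal numbers of top peaks (right), under each setting named on the vertical axis. Closed regions outnumber opened ones in all settings shown except equal numbers without baseline replicate 1, where 3032 were opened and 2740 closed.

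Both kinds of region were weak and narrow. Peaks were ranked by score within their own list, as a percentile in which 100 is the strongest, and the score was the caller's summed significance over the peak, with a listing minimum of 200. The median percentile in the 2 lists that held the peak was 10.5 for opened and 13.7 for closed regions, against 58.6 for regions in all 4 lists, and the mean score was under 400 for 95.2% of opened and 96.0% of closed regions. The median width was 358 bp for opened, 327 bp for closed and 672 bp for regions in all 4. Only 4 opened and 45 closed regions had a score of at least 400 in both lists with the peak and no peak of any score in the other group. Closed regions lay away from promoters, with 8.47% (exact binomial 95% interval 7.42 to 9.61, counting error only) within 1 kb of a start site against 33.9% of all regions, and 55.7% in introns against 39.1%. Opened regions lay at promoters in 23.8% (17.2 to 31.5). With equal numbers 8.54% of closed and 190 of 760 opened regions lay there, beside 36.2% of all.

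The strongest opened region lay in an intron of SCIRT, a long non-coding RNA gene on chromosome 6 (chr6:44007805-44009321). Its peak scored 587 and 1039 in the control libraries, a mean rank percentile of 65.0, and no peak was listed at baseline. The SCIRT gene (chr6:43931572-44074655, minus strand) held 28 merged regions, of which 4 were opened, 0 were closed, 17 had a peak in all 4 lists and 4 had one in a single control list and no baseline list. It had opened neighbours on one side, which scored 314 and 627 (chr6:44006349-44007457) and 232 and 360 (chr6:44005118-44005712), both overlapping exons of SCIRT and of the non-coding LINC03040. Another, nearer the start of the gene, scored 217 and 641 (chr6:44052354-44053213). One more opened region lay just outside SCIRT (chr6:44078348-44078843). The peak over the SCIRT start itself was present throughout and scored 8600 and 9716 in the control libraries and 4783 and 1602 at baseline, so that both control scores were above both baseline scores. Score levels are not comparable between libraries of unlike depth, and this locus was singled out after its values were seen.

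These regions were also listed after 24 h with either ligand and hardly before, in libraries that took no part in the rule. All 4 opened regions within SCIRT had a peak in 4 of 4 ligand-treated 24 h lists (EGF and HRG) and in 0 of 6 lists at 1 h. At 12 h, 2 of the 4 had a peak in 2 of 6 lists and the other 2 in none. Of the 20 lists of the parent line BT474, 1 held a peak at the region nearest the start and 0 at the others. Among regions of the gene with a peak in all 4 lists, the strongest, over its start, was listed in 20 of 20 BT474 lists. Others, such as chr6:43999897-44000829 and chr6:44068436-44069034, were listed in 0 of 20. Absence from BT474 was therefore not particular to the opened regions of this gene.

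**Figure D3:**
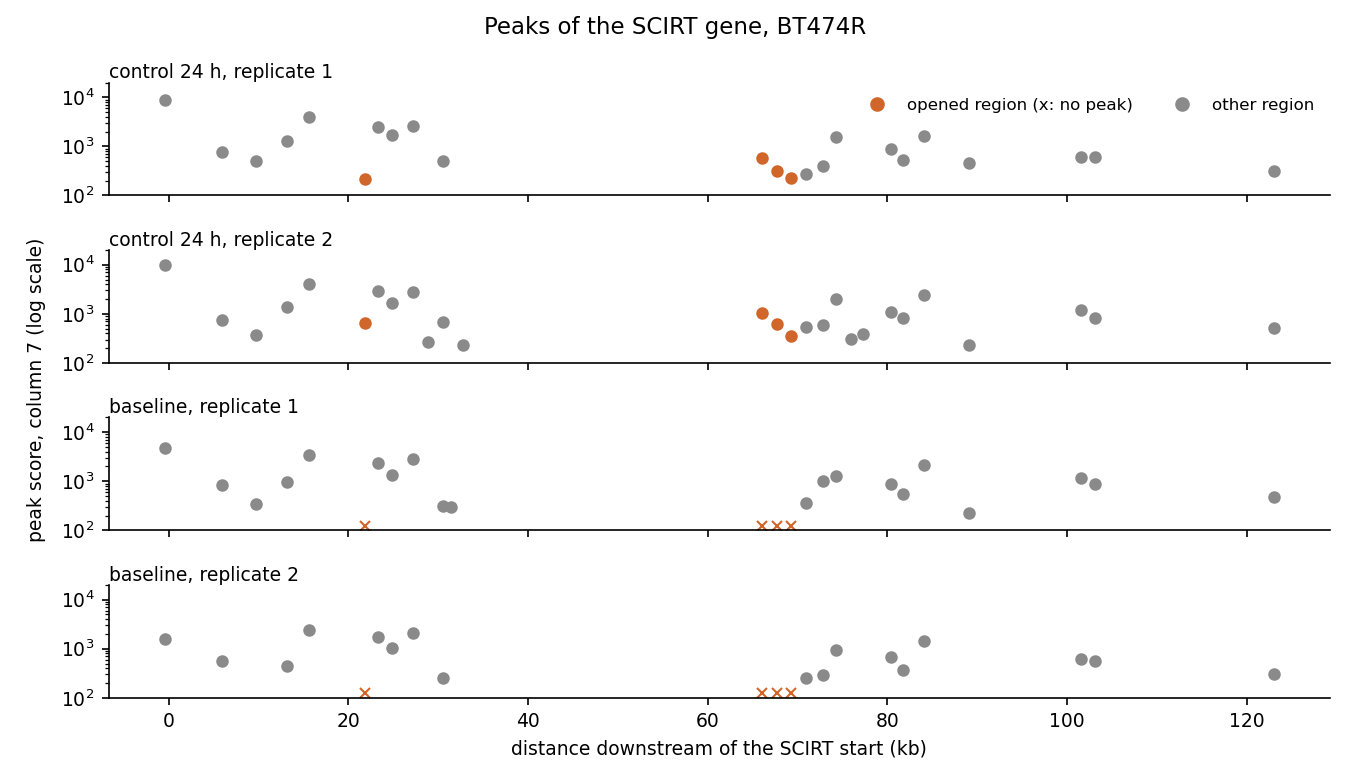
Peak scores (column 7, log axis) at the merged regions of the SCIRT gene against the distance downstream of its start in kb, 1 panel per library; circles are peaks, orange marks the 4 opened regions and crosses mark opened regions with no peak in that library. The 4 opened regions have circles in both control 24 h libraries, with scores from 217 to 1039, and crosses in both baseline libraries, while the region at the start scores 8600 and 9716 against 4783 and 1602.

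The other high-ranking opened regions were spread over the genome. In an intron of STARD3, which encodes a sterol transport protein and lies beside ERBB2 in the amplified part of chromosome 17, a region scored 495 and 521 (chr17:39655197-39657310), and it was listed in 12 of the 16 other BT474R libraries but in 2 of 20 BT474 libraries. The chromosome 7 region with the adjoining AP-1 matches scored 419 and 613 (chr7:159317373-159317891), had no protein-coding start within 100 kb, and was listed in 11 of 16 BT474R and 0 of 20 BT474 libraries. A region 47.1 kb from TOMM20, a subunit of the mitochondrial import receptor, scored 406 and 486 in an intron of LINC01348 and was listed in the 4 ligand 24 h libraries and no other. Regions in introns of MYO5B (360 and 445), a myosin motor of vesicle recycling, and of CIC (304 and 439), a repressor that ERK signalling relieves, were weaker. The MYO5B region was listed in 15 of 16 other BT474R and 18 of 20 BT474 libraries, and the CIC region in 5 of 16 and 8 of 20. At SRCIN1, an inhibitor of SRC kinase, the opened region (359 and 410) lay 0.0240 kb from an annotated start but 59.3 kb from the canonical one, so that it is not the main promoter. This region was listed in 13 of 16 BT474R and 18 of 20 BT474 libraries. The tenth was 78.9 kb from CD24, a surface glycoprotein of epithelial cells, scored 329 and 369 and held an AP-1 match. It was listed in 14 of 16 BT474R and 4 of 20 BT474 libraries. Beside SCIRT, the gene with more than 1 opened region nearest to it was PMEPA1, a TGF-beta target that restrains that pathway, with 2 of 32 regions.

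The appearance at 24 h seen at SCIRT applied to few opened regions in full. A peak in 4 of 4 ligand 24 h lists and in 0 of 6 lists at 1 h was found for 14 of 147 opened regions (9.52%), 3 of 2574 closed regions (0.117%) and 103 of 51387 regions that were neither. With equal numbers the pattern was found for 18 of 760 opened regions (2.37%), 1 of 1276 closed regions and 62 of 44800 others (0.138%). The 5 regions at SCIRT were among the 14 in the lists as deposited. The others, named after their values were seen, included an intron of WIPF1 (chr2:174660920-174661531), which encodes an actin regulator, an intron of PIDD1 (chr11:806227-806742), a p53-induced adaptor, an intron of TMPO (chr12:98521102-98521447), a nuclear lamina protein, and a site 6.22 kb upstream of KRT19 (chr17:41534286-41534781), a keratin of luminal cells. At KRT19 the control scores were 256 and 238, near the listing minimum, and 0 of 20 BT474 lists held a peak.

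The strongest closed region was 5.35 kb downstream of the start of IL9, a cytokine gene (chr5:135890360-135891181). Its peak scored 1018 and 864 at baseline, a mean percentile of 73.5, and none was listed in either control 24 h library. The region was listed in 13 of 16 other BT474R and in 16 of 20 BT474 libraries, both control 12 h libraries included. With ligand at 24 h it was mostly missing too, listed in 0 of 2 EGF and 1 of 2 HRG libraries. Next came introns of MECOM (756 and 638; chr3:169345250-169346268), a zinc finger transcription factor, PALM2AKAP2 (826 and 579; chr9:109790591-109791550), a kinase anchoring protein, and EGLN3 (801 and 583; chr14:34112934-34113741), a prolyl hydroxylase that marks HIF proteins for degradation. The EGLN3 region was listed in all 16 other BT474R and all 20 BT474 libraries, so that the 2 control 24 h lists were the only ones of 40 without it. In an intron of ADCY2, an adenylyl cyclase, a region scored 696 and 522 (chr5:7478149-7478891) and was listed in 9 of 16 BT474R and 0 of 20 BT474 libraries. Weaker regions scored 629 and 505 near AGFG1 and 606 and 509 near BTN3A2, a butyrophilin of the antigen presentation region. Another pair among the highest 10, on chromosomes 6 (857 and 505; chr6:105608737-105609954) and 10 (846 and 424; chr10:22110611-22111868), had no protein-coding start within 100 kb.

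Some genes had several closed regions nearest to them, and those with the most are given here as a description, beside the 4.76% of all regions that were closed. HIVEP3, a zinc finger protein that binds NF-kB-like sites, was the nearest gene of 7 closed regions among its 32 regions (chr1:41665327-41901096). With equal numbers it had 6 among 27. EGLN3 had 5 of 37, and MAGI2, MVB12B and ATP8A2, which encode a junction scaffold, an ESCRT-I subunit and a phospholipid flippase, had 4 of 12, 4 of 24 and 4 of 19. The growth factor receptor gene IGF1R (4 of 19) and the ubiquitin ligase gene NEDD4L (4 of 30) tied with these and were left out of the rule by position only. None of the 7 genes had an opened region, but only 0.272% of all regions were opened, so that this does not set these genes apart. In total, 1663 protein-coding genes (8.33% of 19962) had a closed region nearest to them within 100 kb and 119 (0.596%) an opened one.

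Closed regions differed from the rest in the letters around their summits. AGATAA, the GATA motif, was found within 100 bp of the summit in 16.9% of closed regions (exact binomial interval 15.4 to 18.4), 2.04% of opened regions (3 of 147, 0.423 to 5.85) and 7.73% of all merged regions. TGTTTAC, the forkhead motif, was found in 14.1% (12.7 to 15.5), 4.76% (1.94 to 9.57) and 8.41%. Since promoters are rich in GC and hold few such matches, the shares were also taken outside promoters, where GATA stood at 17.0% of closed, 2.68% of opened and 10.1% of all regions, and forkhead at 14.6%, 5.36% and 11.0%. Equal numbers gave 18.8%, 5.61% and 9.94% for GATA and 15.7%, 8.25% and 11.1% for forkhead. Both motifs are rich in A and T, and the median GC content of closed regions, 44.3%, was below that of all regions, 53.2%. Among weak regions outside promoters (mean percentile under 25) with a GC content under 50%, GATA was found in 18.8% of 1535 closed and 14.8% of 7126 regions that were neither opened nor closed, and forkhead in 15.9% and 13.7%. Without these limits the regions that were neither stood at 9.62% and 10.7% outside promoters, so that the gap was smaller among regions of like strength and base composition. Leaving out each library moved the GATA share of closed regions between 12.4% and 16.9% and the forkhead share between 11.0% and 14.0%. The GATA share of opened regions rested on few regions, and was 7.33% without control replicate 1 and 6.19% without control replicate 2, near the 7.73% of all regions.

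AP-1 matches went the other way. TGANTCA was found in 22.4% of opened regions (33 of 147, interval 16.0 to 30.1), 11.1% of closed and 12.4% of all regions, and outside promoters in 26.8%, 11.4% and 15.7%. With equal numbers it was found in 18.4% of opened, 10.3% of closed and 12.4% of all regions. Counted without baseline replicate 1, opened regions held a match in 9.55%, below the 12.4% of all merged regions, and without baseline replicate 2 in 21.7%. Leaving out a library loosens the rule, however. The 2818 regions counted without baseline replicate 1 take in regions with a peak in that library that lacked one in baseline replicate 2. The value therefore does not show on which library the share rested. CCAATCA, the NF-Y motif of cell cycle promoters, was found in 9 of 112 opened regions outside promoters (8.04%, beside 2.12% of closed and 2.41% of all), but in 3.86% with equal numbers. CTCF, the insulator protein, had a match in 2.68% of opened regions outside promoters as deposited and in 6.49% with equal numbers, against 0.943% of closed and 3.31% of all regions in the latter. Motifs of GC-rich promoters were scarce in closed regions, with SP/KLF (GGGCGGGG) in 0.777% against 9.60% of all, and ETS (CCGGAAG) in 0.855% against 4.65%. Outside promoters SP/KLF stood at 0.552% against 2.36%, and ETS at 0.806% against 1.48% as deposited but at 1.54% in both with equal numbers. Outside promoters CEBP, searched as TTGCNCAA, was found in 2.68% of opened and 5.77% of closed regions, and the plot also shows the grainyhead (GRHL) letters AACCNGTT and, for the TEAD factors, CATTCCA. The motif strings can overlap at their ends, and 1 summit window can hold several.

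**Figure D4:**
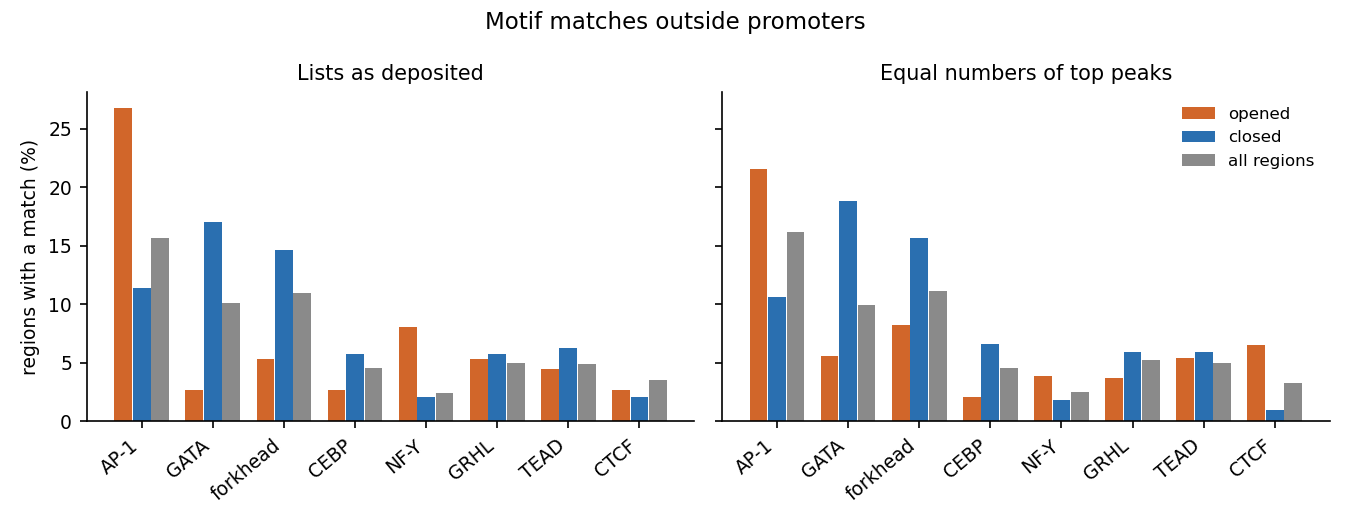
Share of regions outside promoters, in percent, with a motif match within 100 bp of the summit, for opened, closed and all merged regions, in the lists as deposited (left) and with equal numbers (right). GATA and forkhead bars are highest for closed regions (17.0% and 14.6% as deposited) and AP-1 bars for opened regions (26.8%). Over all positions the AP-1 share of opened regions was 22.4%, and 9.55% under the looser rule without baseline replicate 1.

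Libraries outside the comparison were used to place the regions in time. Regions called with equal numbers were looked up in the top 41833 peaks of each other BT474R list, or the whole list where it was shorter. Closed regions had a peak in 65.9% and 68.4% of cases in the control 1 h libraries, in 4.31% and 40.4% at 12 h, and in 22.6% to 31.7% in the 4 ligand 24 h libraries. The 12 h replicates disagreed, and the first of them had the shortest list of the series. Opened regions had a peak in 30.4% and 28.8% of cases in the control 1 h libraries, in 19 and 190 of 760 cases at 12 h, and in 59.3% to 64.2% with EGF and 56.7% and 77.5% with HRG at 24 h. Of all merged regions, 82.7% to 85.5% had a peak in the libraries at 1 h and 81.0% to 86.6% in those at 24 h, and the lowest of the 16 libraries, control 12 h replicate 1, held 65.7%. All 6 libraries at 1 h thus held more of the closed regions (56.3% to 68.4%) and fewer of the opened regions (27.9% to 31.6%) than all 4 ligand libraries at 24 h.

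**Figure D5:**
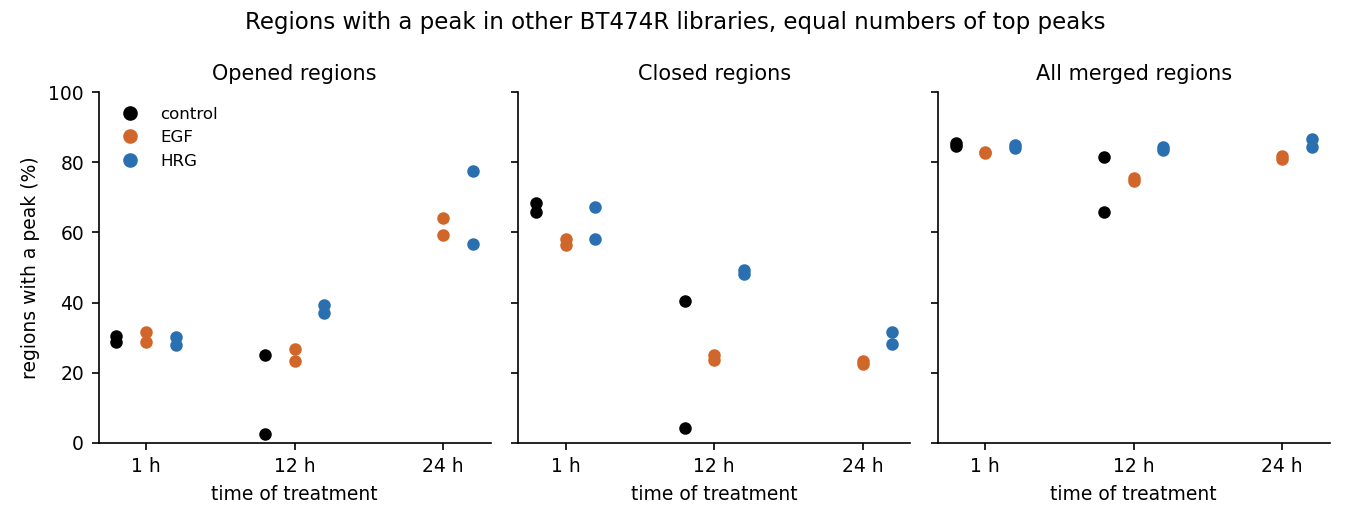
Share of opened (left), closed (middle) and all merged regions (right), in percent, with a peak in each other BT474R library, by time and treatment, 1 point per library; regions were defined, and lists shortened, with equal numbers of top peaks. At 24 h the EGF and HRG libraries hold 56.7% to 77.5% of opened and 22.6% to 31.7% of closed regions, against 27.9% to 31.6% and 56.3% to 68.4% in the libraries at 1 h.

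The 147 opened and 2574 closed regions of the lists as deposited were looked up in the other lists at their full length. Closed regions were listed in 91.1% and 88.0% of cases at control 1 h, where the lists were long (56494 and 54256 peaks), in 29 and 489 of 2574 cases at 12 h, in 40.4% and 38.1% with EGF at 24 h and in 67.2% and 25.6% with HRG. Opened regions were listed in 58.5% and 56.5% of cases at control 1 h, 4.08% and 8.84% at control 12 h, 87.1% and 79.6% with EGF and 95.9% and 50.3% with HRG at 24 h. Every opened region had a peak in at least 1 of the 16 other BT474R libraries, whereas 45 of 147 (30.6%) had none in the 20 BT474 libraries, as had 769 of 2574 closed regions (29.9%) and 12.1% of all regions. Members with an AP-1 match were listed more often under both ligands. At 12 h with EGF, 57.6% and 39.4% of the 33 opened regions with a match had a peak, against 15.8% and 11.4% of the 114 without. At 24 h the shares were 100% and 100% against 83.3% and 73.7%. Among closed regions, 69.6% and 69.2% of the 286 with a match had a peak with EGF at 24 h, against 36.8% and 34.2% of the 2288 without. With HRG the shares at 12 h were 66.7% and 39.4% of opened regions with a match against 31.6% and 17.5% without, and 68.9% and 55.6% of closed regions with a match against 43.2% and 30.3% without. At 24 h with HRG they were 80.8% and 45.5% against 65.6% and 23.2% of closed regions. By contrast, closed regions with and without a GATA match had like shares with EGF at 24 h (38.2% and 36.2% with, 40.8% and 38.5% without). Closed regions with a forkhead match had lower shares there, 32.3% and 28.5% against 41.7% and 39.7% without. At control 12 h, opened regions with an AP-1 match stood at 0% and 3.03% against 5.26% and 10.5% without. Closed regions then stood at 0.699% and 17.5% against 1.18% and 19.2%. At control 1 h, opened regions with an AP-1 match stood at 63.6% and 60.6% against 57.0% and 55.3%.

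The same rule was applied to the parent line. In BT474, control 24 h against baseline had 1584 opened (2.86%) and 523 closed regions (0.944%) among 55411, an excess of opened regions where BT474R had an excess of closed ones. With equal numbers the BT474 counts were 918 (1.75%) and 937 (1.79%) among 52389, with no such excess. Of the 147 regions opened in BT474R, 7 overlapped a region opened in BT474 (4.76% of the first list and 0.442% of the second), and 31 closed regions overlapped (1.20% and 5.93%). In the opposite direction, 61 regions closed in BT474R overlapped a region opened in BT474 (2.37% and 3.85%), and 1 opened region overlapped a closed one. The numbers of distal peaks were 33292 and 31836 at 24 h and 31629 and 29649 at baseline in BT474, higher in both control libraries, where BT474R had lower numbers in both. The difference between the lines in the change of distal peaks was -6731 (exact permutation within lines, two-sided, p = 0.0556, the smallest p that 36 arrangements can give).

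Gene lists for ERBB signalling, cell cycle, starvation, stress, steroid response, metabolism and cell identity were examined last. Of 184 genes, 153 had a promoter peak in all 4 lists and 21 in none, and the promoters of 1 gene held an opened and of 3 a closed region, beside 0.165% and 0.802% of all protein-coding genes. These 4 regions lay at alternative starts: at FASN, the fatty acid synthase, an opened region (210 and 367) was 17.3 kb from the canonical start, and closed regions at GREB1 (232 and 251), an estrogen-induced cofactor, EGLN3 (309 and 232) and SMAD3 (311 and 267), a TGF-beta effector, were 8.54, 272 and 110 kb from theirs. Within 100 kb, 41 of 986 regions nearest to list genes were closed (4.16%) and 3 opened (0.304%), beside 4.12% and 0.254% of the regions near any gene. With equal numbers, 14 of 867 were closed (1.61% beside 2.30%) and 24 opened (2.77% beside 1.61%), so that the position of the lists against that background changed with the setting; no test was made. The genes that follow were singled out after their values were seen. The nearest genes of closed regions included 33 of the 184, and 8.33% of all protein-coding genes, with 1 to 5 in each of the 14 lists. They included 4 of 12 TGF-beta and TEAD targets (SMAD3 and SMAD7 among them), 4 of 13 luminal factors (TFAP2B, TFAP2C, GRHL1 and XBP1), 5 of 18 starvation, FOXO and autophagy genes (FOXO3, INSR, TXNIP, BCL6 and PDK4) and 3 of 11 ERK feedback genes (DUSP4, SPRY4 and SPRED2). With equal numbers these counts were 2, 2, 1 and 2. The strongest of these was in an intron of GRHL1, a grainyhead factor of epithelia, at 449 and 429 (chr2:9952930-9953434). HK2, the hexokinase of glycolysis, had an opened (292 and 362) and a closed region (460 and 368) 54.3 and 69.2 kb upstream.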

How the data were processed

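Peak lists were the only files used. Reads had been trimmed by the authors with TrimGalore (0.6.6 in the submitters' processing notes), mapped to GRCh38.p13 with BBMap and called peaks in each library with Genrich, without mitochondrial reads and ENCODE blacklisted regions. Genrich's options: not given in the sources used here. The deposited score of a peak is an area under the curve of significance, at least 200 in every list; the deposited −log10 p-value (and a −log10 q-value column) and summit offset came from the same caller. Scores depend on depth. They were used to rank peaks within a list and, as alternatives, for a threshold of 400, and are printed as deposited with no test between libraries. The study's DiffBind comparison of reads was not repeated, and presence of a peak was used in its place.

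Groups came from the sample labels. Lists were merged at 1 bp of overlap and compared by exact permutation where a value per list existed; regions were counted with no test. Coordinates are GRCh38, genes GENCODE release 44, and 0 peaks lay past a chromosome end. Motifs (21) were searched on both strands. The calling rule was tested on simulated data. Members, gene lists and motifs were chosen with earlier results of these data known. The naming rule took, per direction, the 10 regions called in both settings with the highest mean rank percentile, by the nearest protein-coding gene within 100 kb; list genes with a called promoter region; and 5 genes with the most called regions. Some regions, markers and list genes are not reported here. Alternatives were score thresholds, equal numbers, trimming, coverage, promoter width, motif window, assignment distance, a replicate block and each library left out; looking regions up in lists of equal length, motif strata and motif shares without each library were added after seeing the data. Python 3.11.15, numpy 2.4.6, pandas 2.3.3, pysam 0.24.0, samtools 1.23.1 and matplotlib 3.10.9 were used.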

Additional observations from a re-analysis of the deposited data

Results flagged for a closer look

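The change in the number of peaks outside promoters from baseline to control at 24 h went in opposite directions in the 2 lines, in every library of each. In BT474R both control libraries (25150 and 28415) were below both baseline libraries (34704 and 28473), a difference of -4806, and in BT474 both (33292 and 31836) were above (31629 and 29649), a difference of 1925. The lines differed by -6731 peaks (exact permutation within lines, p = 0.0556, the smallest that 36 arrangements can give). By the same test p was 0.167 for all peaks, 0.111 for promoter share and 0.667 for covered length, so this was the smallest of the measures compared. Control replicate 2 and baseline replicate 2 of BT474R were nearly equal, at 28415 and 28473, so that most of the BT474R difference lay in the other pair of libraries.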

How the results depend on the processing

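Of 146 alternative values of 25 results, 87 were labelled the same, 58 moved and 1 changed sign. The same meant an equal sign for values per list, and a fixed ratio for counts. It meant the exact binomial interval for shares, and the SD of the 2 replicates for presence. The label therefore took in large shifts. Examples are -730 against -4960 peaks without baseline replicate 1, and 1.55% against 10.1% of closed regions at control 12 h. The promoter share difference, 3.61 points, was 1.85 points with equal numbers. Depth is unknown, the duplicates measure only their own spread, and presence of a peak depends on list length, so the counts of opened (147) and closed (2574) regions moved most. They were 760 and 1276 with equal numbers, 609 and 952 with the length of the shortest of the 40 lists, 73 and 1392 at a score of at least 400, 4 and 45 when the other group also had no peak of any score, and 445 opened after trimming to the summit. Leaving out 1 library each, which loosens the rule, gave 184 to 2818 opened and 2964 to 8181 closed regions as deposited. With equal numbers it gave 1379 to 3032 and 2140 to 2740. The difference in covered length ran from -7.08 to 2.09 Mb and changed sign without baseline replicate 1; the cause was not tested.

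The promoter share was 16.4% (opened) and 10.3% (closed) at a score of at least 400, and 43.5% and 21.7% within 3 kb. AP-1 matches stood at 36.7% of opened and 12.4% of closed weak distal regions of low GC, at 13.4% of closed regions with the wider window, and between 9.55% and 24.9% of opened and 10.4% and 13.9% of closed regions without 1 library each. GATA matches in closed regions stood at 20.7% with the wider window, at 18.8% both with equal numbers and in the weak regions of low GC, and between 12.4% and 16.9% without 1 library each, and in opened regions between 3.26% and 7.33%. Forkhead matches in closed regions stood at 15.9% in those weak regions and between 11.0% and 14.0% without 1 library each.

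Mean presence in other libraries is given for different sets of regions. The first value of each series is for the regions called as deposited, looked up in the top 32479 peaks of every list. The next values are for the regions called with equal numbers. These were looked up in other lists as deposited, and then in other lists at most as long. The first value therefore differs from the others in its regions as well as in list length. For opened regions it was 3.40%, 83.8% and 29.6% at control 1 h and 3.06%, 13.8% and 13.8% at control 12 h. At 24 h it was 40.5%, 90.6% and 61.8% with EGF, and 29.6%, 83.6% and 67.1% with HRG. For closed regions it was 9.86%, 96.6% and 67.2% at control 1 h and 1.55%, 22.4% and 22.4% at control 12 h. Closed regions at 24 h stood at 5.30%, 47.6% and 23.0% with EGF, and at 2.27%, 60.4% and 29.9% with HRG.

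With the replicate number as a replicate block, the promoter share difference was 3.61 points (exact sign-flip p = 0.5, the smallest available); no other call changed. Same-numbered samples did not deviate together (correlations of -0.0706 as deposited and 0.0232 with equal numbers), so they share only a number.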

Other observations

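Closed regions were unevenly spread over chromosomes. They were 7.58% of the 1240 regions on chromosome 13 and 7.02% of the 1211 on chromosome 18, and 2.11% of the 2326 on chromosome 19 and 2.81% of the 1923 on chromosome 16. With equal numbers the same 4 chromosomes stood at 4.18%, 4.29%, 1.21% and 2.07%. Opened regions ranged from 0.0806% on chromosome 13 to 0.518% on chromosome 22, where 7 were counted, and 14 of the 147 lay on chromosome 6, which holds SCIRT.

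Regions with a peak in a single library resembled those called in both in some respects and not in others. The 5950 regions listed in 1 baseline list and no control list held a GATA match in 10.4% and a forkhead match in 9.92%, between the shares of closed regions and of all regions. The 795 regions listed in 1 control list and no baseline list held an AP-1 match in 183 cases (23.0%), beside 22.4% of opened and 12.4% of all regions. Of these 795, 39.9% had no peak in any BT474 library, beside 30.6% of opened and 12.1% of all regions.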
